A study of Mus musculus with 8 samples.

Results

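Snd1 and Mtdh are a pair of binding partners, and their transcripts were followed probe by probe through a study that lowered one of them and replaced the other. Probes were found in the scanner files by RefSeq accession, NM_019776 for Snd1 and NM_026002 for Mtdh. This gave 1 probe for Snd1 (A_52_P467140) and 2 probes for Mtdh (A_51_P158822 and A_52_P358349), 3 of the 41174 probes and 2 of the 18883 named genes on the array. Snd1 lies on mouse chromosome 6 and Mtdh on chromosome 15 in RefSeq's gene table.

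Snd1 (also Tudor-SN) carries repeated staphylococcal nuclease-like domains and a Tudor domain, and works as a transcriptional coactivator and in RNA splicing, editing and silencing. Mtdh (metadherin, also AEG-1 or Lyric) is a protein of the endoplasmic reticulum, cytoplasm and nucleus with a role in metastasis and drug resistance of breast cancer. Mtdh binds the nuclease-like domains of Snd1 through a short stretch that holds paired tryptophans, and in mammary tumour models the complex is known to support tumour-initiating cells under stress.

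All cells were lines from mammary tumours of FVB mice with the PyMT oncogene, and all had received 50 uM CPT (camptothecin, a topoisomerase I poison that damages replicating DNA) for 36 h. The Snd1 knockdown was the wild-type line WTA with LKO1-shSnd1, a lentivirus that expresses a short hairpin RNA (3 arrays). The W391D rescue was the Mtdh-KO line KO2 with LmPGK-mMtdhspm13-ires2-GFP, which encodes Mtdh whose W391D point mutation makes it deficient in binding Snd1 (1 array). The wild-type rescue was the same KO2 line with LmPGK-mMtdh-ires2-GFP (1 array). The vector control was WTA with empty LKO1 (3 arrays). WTA cells were selected with puromycin and KO2 cells were sorted for GFP, so line, genotype, vector and selection all differ between the rescues and the vector control. The rescue constructs are named for the PGK promoter, not the Mtdh promoter. The control for the hairpin was an empty vector, and each genotype was represented by 1 line. Cells without CPT, and KO2 cells without a rescue, were not analysed here.

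Each array compared Cy5-labelled sample RNA with Cy3-labelled Universal Mouse Reference RNA, a mix from 11 mouse cell lines, so a log2 ratio below 0 means less signal in the tumour cells than in the reference. Median Cy5 signals were 158 to 363 scanner units per array over a median local background of 61 to 72, and 78.02% to 88.47% of spots were well above background. Knockdown 1 and vector 1 shared one slide, the other 4 WTA arrays shared a second, and each rescue was alone on its slide. Separate cultures are not named in the labels, so p-values cover only array-to-array spread, possibly technical, and the number of arrays limits the precision. The 6 luminal epithelial markers (Krt8, Krt18, Krt19, Epcam, Cdh1 and Elf3) were well above background on all arrays. Their mean log2 ratio was 0.97 to 0.98 in the knockdown, 2.17 in each rescue and 1.06 to 1.20 in the vector cells. In the knockdown 4 of 6 luminal markers were lower and 2 higher at limma adjusted p under 0.05 (median log2 fold change -0.52). Over all 17244 named genes tested 51.6% passed that threshold, 25.6% lower and 26% higher. Krt19 differed most between lines, at -0.28 in the W391D rescue and -0.40 in the wild-type rescue, against a mean of -4.13 in the vector cells. The 5 fibroblast markers (Col1a1, Col1a2, Col3a1, Pdgfrb and Postn) were also well above background on all arrays, so none was absent. Their mean log2 ratio was -2.84 to -2.78 in the knockdown, -4.69 in the W391D rescue, -4.65 in the wild-type rescue and -4.43 to -4.42 in the vector cells. In the knockdown 5 of 5 were higher at the same threshold, against 26% of named genes, but unevenly (median log2 fold change 2.39, the value of Col1a1). Postn rose by 2.72 and Pdgfrb by 2.44, against 0.40 for Col1a2 and 0.16 for Col3a1. Other Col1a1 probes gave 0.72 and 0.20, and the other Col3a1 probe 0.05. The part of these markers in the differences reported for Snd1, Mtdh and the gene lists was not tested. In bulk RNA, fewer cells of a type and less RNA per cell cannot be told apart.

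Snd1, the target of the hairpin, was the member with the clearest difference. Its Cy5 signal was 288, 362.5 and 349 in the 3 knockdown arrays, 1118 in the W391D rescue, 1373 in the wild-type rescue, and 602, 874.5 and 828 in the 3 vector arrays. In these signals, which are not normalized, the knockdown arrays were the 3 dimmest and the rescues the 2 brightest. The rescue arrays were also the brightest over all spots (median Cy5 363 and 345, against 158 to 306 on the WTA arrays). With the Cy5 signal alone put on a common scale across arrays, the W391D rescue (log2 9.67) lay below vector 1 (9.78). The Cy3 reference signal at the same spots stayed between 1331.5 and 1735 on all 8 arrays, and the local Cy5 background between 58 and 76. The Snd1 spot was well above background in both dyes on 8 of 8 arrays.

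As a normalized log2 ratio to the reference, Snd1 read -3.23, -3.33 and -3.44 in the knockdown, -1.98 in the W391D rescue, -1.92 in the wild-type rescue, and -2.49, -2.40 and -2.43 in the vector cells. All of these tumour cells thus gave less Snd1 signal than the reference. The mean was 10.1-fold below the reference in the knockdown (log2 ratio -3.33 ± 0.11, SD, n = 3) and 5.41-fold below it in the vector cells (-2.44 ± 0.05, SD, n = 3). Snd1 was 3.94-fold below the reference in the W391D rescue and 3.77-fold below it in the wild-type rescue. The knockdown values lay apart from the others, with no overlap.

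**Figure D1:**
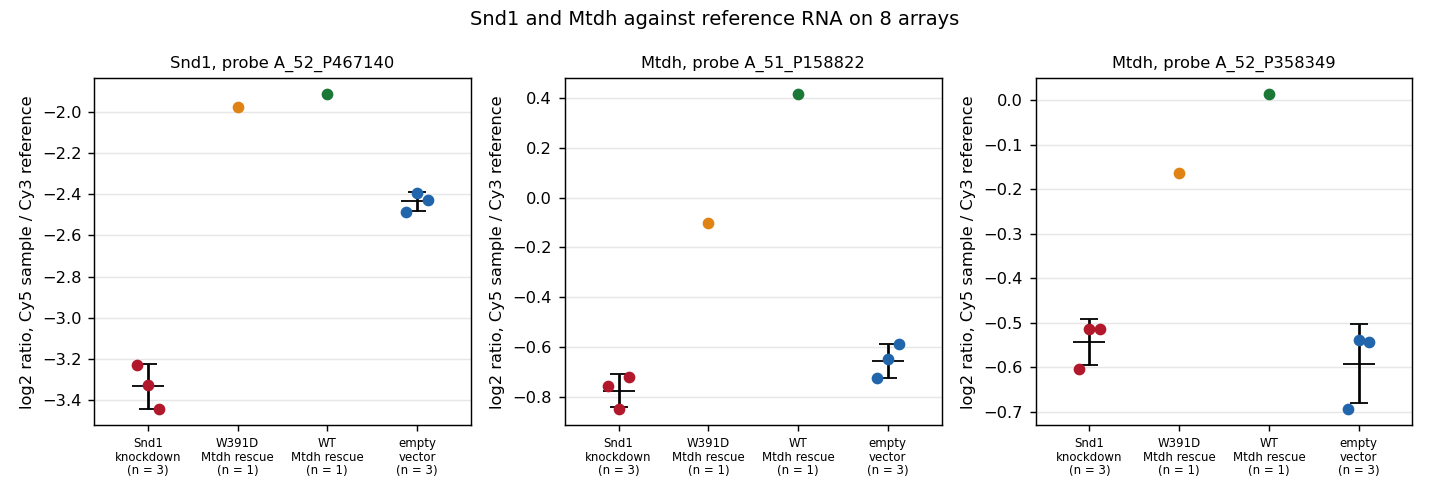
Log2 ratio of Cy5 sample to Cy3 reference (y axis, a separate scale in each panel) for the Snd1 probe and both Mtdh probes in the Snd1 knockdown (n = 3), W391D Mtdh rescue (n = 1), wild-type (WT) Mtdh rescue (n = 1) and empty vector (n = 3). Points are arrays, and bars are the mean ± SD of the groups of 3. Snd1 is lowest in the knockdown (-3.44 to -3.23), and both Mtdh probes are highest in the wild-type rescue (0.42 and 0.01).

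Snd1 fell in the knockdown by 0.90 on the log2 scale (SE 0.06, 95% confidence interval -1.04 to -0.75, limma adjusted p = 8.66e-06, n = 3 and 3). This left 53.7% of the vector level (48.6% to 59.4%). Among the 33564 probes tested, 45.7% passed the same threshold and 22.1% did so by being lower in the knockdown, and 53.9% of probes had knockdown and vector values that did not overlap. Read against that background, passing the test does not set Snd1 apart. There were 645 called probes that fell further than Snd1, which ranked 646 of 33564 from the lowest.

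The size of the Snd1 difference depended on how signals were scaled. It was 2.28-fold (log2 -1.19, 43.8% remaining) with the scanner software's own log ratios, 1.86-fold in the values above, and 1.79-fold with ratios scaled between arrays. Over 20 alternatives it stayed below 0 and past the threshold, with limma adjusted p between 1.04e-06 and 0.00416. Knockdown minus vector for Snd1 was -0.74 between the 2 arrays sharing a slide (1 array each) and -0.97 among the 4 that shared the other (2 arrays each). That slide difference of -0.23 ± 0.10 (SE) had an unadjusted p of 0.0492 and an adjusted p of 0.509 in limma, in a fit added after the data were seen.

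**Figure D2:**
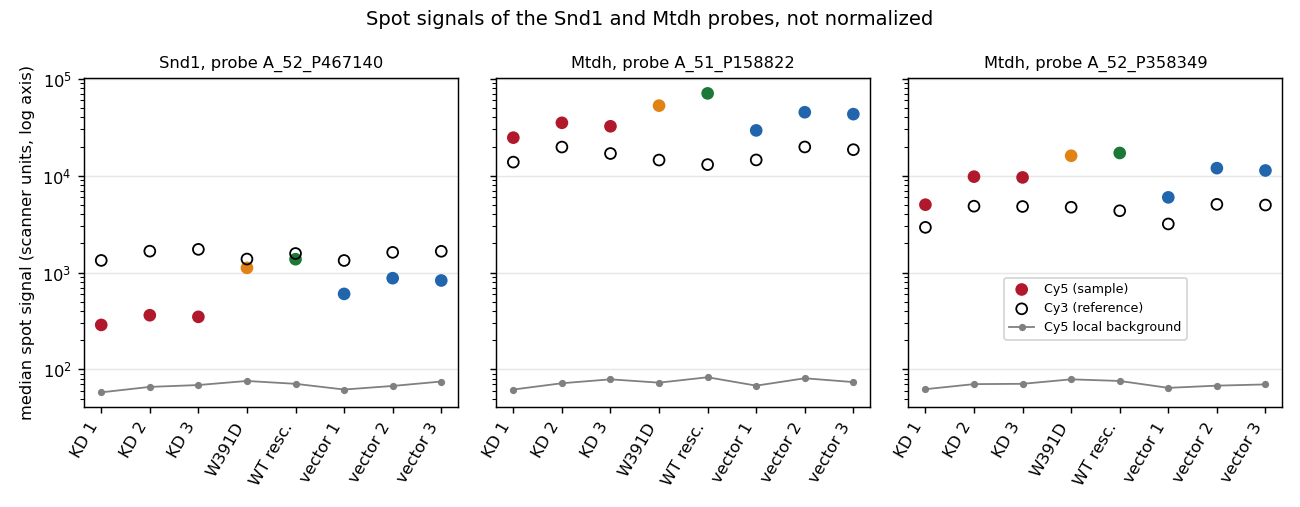
Median spot signal in scanner units (log y axis, not normalized) of each member probe on each array (x axis, KD = Snd1 knockdown), with Cy5 sample as filled points coloured by group, Cy3 reference as open circles and local Cy5 background as the grey line. The Snd1 Cy5 signal drops to 288 to 362.5 in the knockdown while its Cy3 signal stays between 1331.5 and 1735.

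The rescue cells had similar Snd1 values with either form of Mtdh. The W391D rescue was 0.06 lower than the wild-type rescue on the log2 scale, whereas pairs of replicate arrays of the WTA groups differed at the Snd1 probe by 0.03 to 0.22. The rescue difference thus lay inside the range seen between replicates. With 1 array each there was no test, and other processing gave differences down to -0.37 (Cy5 signal alone), above that replicate range. Snd1 was 0.46 higher in the W391D rescue (1.37-fold) and 0.52 higher in the wild-type rescue (1.43-fold) than in the vector cells. Those differences exceeded the spread of the 3 vector arrays, but with the Cy5 signal alone the W391D value was only 0.10. Both rescues are set against the same 3 vector arrays, and line, slide and construct cannot be told apart in them.

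In order from low to high, Snd1 therefore ran knockdown, vector, W391D rescue and wild-type rescue. In these values the last 2 were the only neighbours in that order that did not differ beyond the replicate spread.

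Mtdh was measured by a bright probe and a second, dimmer one, and neither passed the test for a difference between knockdown and vector. At probe A_51_P158822 the Cy5 signal was 24687.5, 35143 and 32349.4 in the knockdown, 52842.9 in the W391D rescue, 70711.3 in the wild-type rescue, and 29331.8, 45165.2 and 43179.7 in the vector cells. The corresponding log2 ratios were -0.76, -0.85 and -0.72 in the knockdown, -0.10 in the W391D rescue, 0.42 in the wild-type rescue, and -0.73, -0.65 and -0.59 in the vector cells. The knockdown and vector arrays overlapped, and both rescue arrays lay above all 6 WTA arrays.

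Knockdown minus vector at this Mtdh probe was -0.12 ± 0.06 (SE, 95% confidence interval -0.25 to 0.01, limma adjusted p = 0.117, n = 3 and 3). The interval covers both a lower level and no difference. Across alternatives the value ran between -0.20 and -0.08 with adjusted p between 0.0307 and 0.331, and the lowest p came from weighting the arrays, which gave -0.16 and passed the threshold. By slide it was -0.03 (1 array each) and -0.17 (2 arrays each).

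At probe A_52_P358349 the Mtdh Cy5 signal was 5017, 9773 and 9594 in the knockdown, 16058.5 in the W391D rescue, 17152 in the wild-type rescue, and 5971, 11961 and 11313 in the vector cells. The log2 ratios were -0.60, -0.51 and -0.51 in the knockdown, -0.16 in the W391D rescue, 0.01 in the wild-type rescue, and -0.69, -0.54 and -0.54 in the vector cells. Here the first array of each WTA group, on the first slide, was the lower one, and knockdown and vector overlapped. Knockdown minus vector was 0.05 ± 0.06 (SE, 95% confidence interval -0.09 to 0.18, limma adjusted p = 0.553, n = 3 and 3). The sign of this value was not stable, being -0.06 with median centring, -0.02 with Cy5 signal alone and -0.003 without vector replicate 1. Neither Mtdh probe thus passed the test between knockdown and vector cells, with intervals that run from 84.0% to 100.5% of the vector level at the first probe and from 94.2% to 113.5% at the second.

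Between the rescues, Mtdh was lower with the W391D form at both probes. The log2 difference was -0.52 at A_51_P158822 (0.697-fold) and -0.18 at A_52_P358349 (0.885-fold). Pairs of replicate WTA arrays differed by 0.03 to 0.14 at the first probe and by 0.00 to 0.16 at the second, so the first difference lay well outside that spread and the second just outside it. Over the 35206 probes compared, W391D minus wild-type rescue had a median of -0.002 and 95% of values lay between -0.29 and 0.25. The Mtdh probe A_51_P158822 was the 71st lowest of them (0.202% of probes lay as low or lower), and Mtdh was the 34th lowest of 17664 named genes. The probe A_52_P358349 lay inside the central range, with 9.19% of probes as low or lower. Past a 2-fold difference, 0.00284% of probes were called (1 of 35206), and neither Mtdh probe was among them. With 1 array each and a slide for each, construct, culture and slide cannot be told apart, and no test was made.

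**Figure D3:**
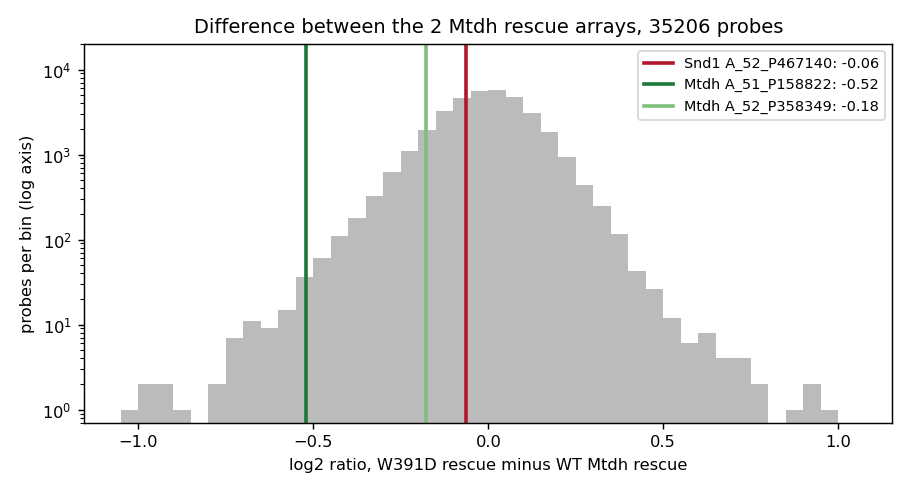
Distribution of the log2 difference between the W391D and wild-type (WT) Mtdh rescue arrays (x axis) over 35206 probes (y axis, probes per bin of 0.05, log scale), with vertical lines at the member probes. Mtdh A_51_P158822 sits in the low tail at -0.52, while Mtdh A_52_P358349 (-0.18) and Snd1 (-0.06) sit within the bulk.

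Both rescues gave more Mtdh signal than the vector cells, which have their own Mtdh gene. In the W391D rescue the log2 difference to the vector mean was 0.55 at A_51_P158822 (1.47-fold) and 0.43 at A_52_P358349 (1.35-fold). In the wild-type rescue it was 1.07 (2.10-fold) and 0.61 (1.52-fold). Only the wild-type rescue at A_51_P158822 passed 2-fold, as 2.94% of probes did in that comparison and 2.06% upward, and 575 probes (1.64%) were as high or higher. In the W391D rescue 2.52% of probes passed 2-fold, 1.81% upward, with no Mtdh probe among them. The probes thus gave rescue differences of unequal size, and whether they differ from each other was not tested. The files do not give where either probe lies relative to the deleted part of Mtdh or to the cDNA in the rescue construct. Signal from the construct and from any remaining transcript of the KO2 line therefore cannot be told apart, and the probes do not check the knockout.

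In order from low to high, A_51_P158822 ran knockdown, vector, W391D rescue and wild-type rescue, and A_52_P358349 ran vector, knockdown, W391D rescue and wild-type rescue. Knockdown and vector, the lowest pair at both probes, did not differ beyond their spread.

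The genes whose pattern over the 8 arrays lay closest to each member were found among 15993 named genes, each centred on its own mean, by root mean square (RMS) difference in log2 ratio. For Snd1 they were Macroh2a1 (a histone variant, RMS 0.047), Eps15 (an endocytic adaptor, 0.048), Cnot6l (a deadenylase of the CCR4-NOT complex, 0.053), Tmsb15l (a beta-thymosin, 0.053) and Foxred2 (an oxidoreductase of the endoplasmic reticulum, 0.058). Each fell in the knockdown, with log2 fold changes of -0.81, -0.83, -0.94, -0.93 and -0.85 in that order, and each was higher in both rescues than in vector by 0.39 to 0.61. They were picked for closeness to Snd1 on these same arrays, so sharing its order over the groups follows from the choice and is no separate result. Pearson correlations with Snd1 were 0.996 to 0.997 over 8 arrays, as a description only, since all values share those arrays and the reference. The choice rests on the brightest probe of each gene: in knockdown minus vector the other probes of Macroh2a1 gave -0.80 and 0.01, the other probe of Eps15 gave -0.08 and that of Cnot6l -0.55, and Tmsb15l has near-identical relatives that can share its probe.

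For Mtdh at A_51_P158822 the closest genes were Ncoa2 (a nuclear receptor coactivator, RMS 0.080), Sync (an intermediate filament protein), Map3k2 (a MAP kinase kinase kinase), Ppp4r3b (a subunit of protein phosphatase 4) and Adgrg6 (an adhesion receptor, RMS 0.094). These too were picked by pattern on the same arrays, so their group differences describe the choice and are no separate result. All 5 were higher than vector in both rescues, by 0.62 to 0.82 in the W391D rescue and 0.87 to 1.02 in the wild-type rescue. All 5 were lower with W391D than with wild-type Mtdh, with log2 differences of -0.32 to -0.19, a smaller difference than that of the Mtdh probe (-0.52). The closest of them was farther from the Mtdh probe than Macroh2a1 was from Snd1. Between knockdown and vector, Sync (-0.24, limma adjusted p = 0.0257) and Ppp4r3b (-0.16, limma adjusted p = 0.0248) passed, while Ncoa2, Map3k2 and Adgrg6 did not. Other probes read -0.01 for Sync, -0.24 for Ppp4r3b, 0.01 and -0.11 for Ncoa2, 0.04 and 0.35 for Map3k2 and 0.03 for Adgrg6. For A_52_P358349 the closest genes, picked in the same way, were Zbtb14 (a zinc finger repressor, RMS 0.027), Cemip2 (a hyaluronidase), Sfmbt1 (a chromatin protein), Gpatch8 (a G-patch protein) and F11r (a junctional adhesion molecule, RMS 0.045). At the brightest probe of each gene none of these passed the test between knockdown and vector, and their rescue minus vector differences were 0.41 to 0.63. In knockdown minus vector, another Zbtb14 probe read 0.30 (limma adjusted p = 0.00445). Other Sfmbt1 probes read -0.34 (limma adjusted p = 0.00157) and 0.21 (limma adjusted p = 0.0319), and another of Gpatch8 read -0.12 (limma adjusted p = 0.137).

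**Figure D4:**
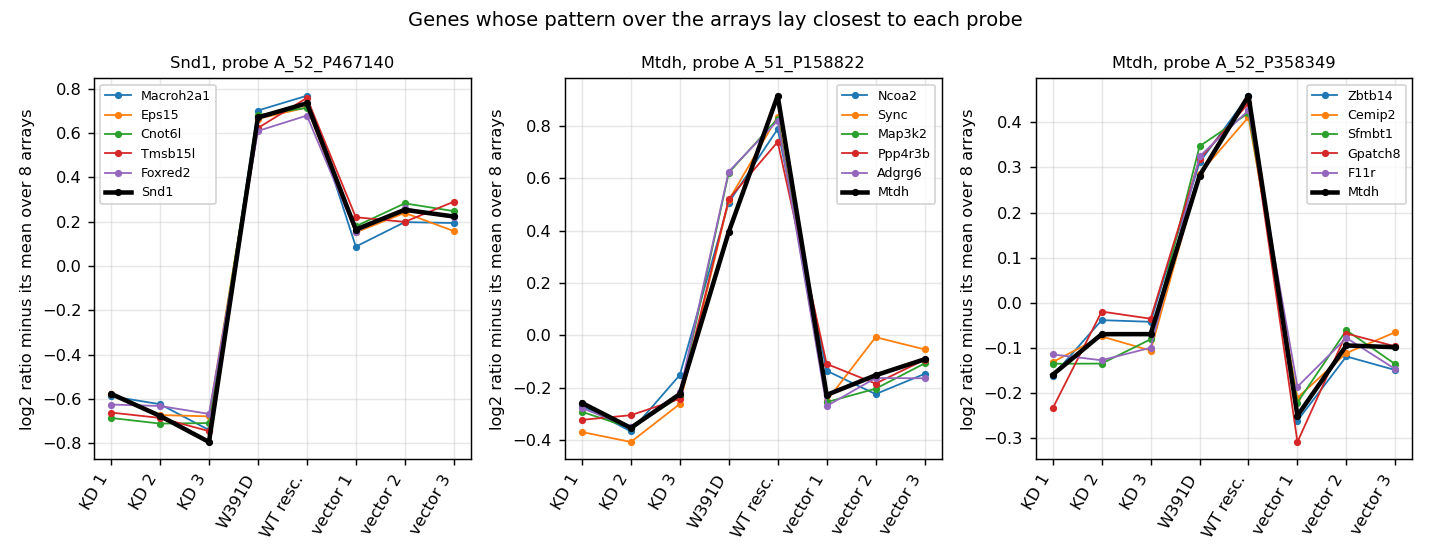
Log2 ratio minus its mean over 8 arrays (y axis) for each member probe (thick black line) and the 5 named genes closest to it (thin lines), array by array (x axis, KD = Snd1 knockdown). The lines for Snd1 (RMS differences of 0.047 to 0.058) and for Mtdh A_52_P358349 (0.027 to 0.045) nearly coincide, while those for Mtdh A_51_P158822 spread more (0.080 to 0.094).

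The genes next to Snd1 and Mtdh on the chromosome showed no common direction. Of the 10 nearest protein-coding genes around Snd1, 9 were tested, 3 were higher and 2 lower in the knockdown and 4 did not pass (55.6% called, against 51.6% of 17244 named genes, of which 26% were higher and 25.6% lower). Lrrc4, a synaptic adhesion protein encoded within the span of Snd1, fell by 0.57 ± 0.06 (SE). That call was lost with the scanner software's log ratios, where Lrrc4 read -0.91 ± 0.92 (SE) and limma adjusted p ran to 0.489. Zfp800, a zinc finger protein, fell by 0.73 ± 0.06, while Impdh1, an enzyme of guanine nucleotide synthesis, rose by 1.01 ± 0.04. Fscn3, a testis fascin, rose by 0.56 ± 0.14 and Gcc1, a Golgi protein, by 0.22 ± 0.05, the last not called with median centring. In the rescues Fscn3 was 1.29 (W391D) and 1.25 (wild-type) higher than in vector cells and Lrrc4 was 0.93 and 0.78 lower, whereas Snd1 was 0.46 and 0.52 higher. Around Mtdh, 9 of 10 genes were tested, 2 rose and 2 fell (44.4% called). Sdc2 did not pass at its brightest probe (-0.08), but its second probe fell by 0.65 ± 0.05 (limma adjusted p = 9.96e-06). Laptm4b, a lysosomal membrane protein, rose by 0.44 ± 0.05 and Matn2, a matrix protein, fell by 0.27 ± 0.06, a call lost with scaling between arrays and with Cy5 alone. The calls of Cpq (0.16) and Rpl30 (-0.22, with many pseudogene copies) were lost under 8 and 10 alternatives. Between the rescues the neighbours of Mtdh differed by -0.24 to 0.14, none as low as the Mtdh probe A_51_P158822. Cpq (-0.24) was lower than the Mtdh probe A_52_P358349 (-0.18).

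**Figure D5:**
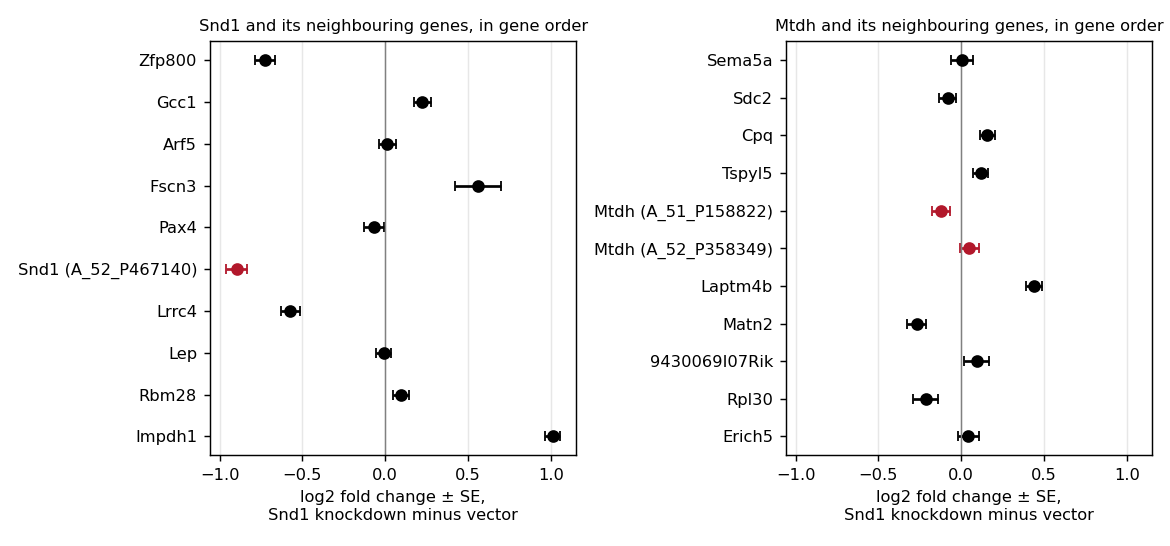
Log2 fold change, Snd1 knockdown minus vector (x axis, points with SE bars, n = 3 and 3), for Snd1 and Mtdh (red, by probe) and the tested genes among the 5 nearest on each side (black), in chromosome order from top to bottom. Snd1 (-0.90) is the lowest of its panel, and Impdh1 (1.01) the highest, while both Mtdh probes lie close to 0.

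Partners of Snd1 moved in both directions in the knockdown. Of 18 partners in RNA silencing and RNA binding, 5 rose, 9 fell and 4 did not pass (77.8% called, against 51.6% of named genes; median log2 fold change -0.16, against 0.01 over all named genes). G3bp2, a stress granule protein, fell by 0.67 ± 0.04 (SE) and Adarb1, an RNA-editing adenosine deaminase, by 0.55 ± 0.04, although a second Adarb1 probe read 0.10. The RNA-binding protein Igf2bp1 rose by 0.89 ± 0.06, and Ago2, the slicing Argonaute of RNA silencing, by 0.61 ± 0.07, and all 3 probes of each rose. Of 11 partners in transcription, 3 rose, 5 fell and 3 did not pass (72.7% called, median -0.04). Stat5b, a signal-dependent transcription factor, fell by 0.99 ± 0.07 and Smad3, an effector of TGF-beta signalling, by 0.28 ± 0.06, but their second probes read 0.11 and 0.23, and the Smad3 call was lost with Cy5 alone. The coactivator Ncoa3 rose by 0.61 ± 0.04 at its brightest probe, while its other probes read 0.05 and 0.09, and the kinase Pim1 rose by 0.53 ± 0.06. Of 10 partners in the SET complex and the U5 spliceosome, 4 rose, 3 fell and 3 did not pass (70% called, median 0.03). Anp32a, a histone-binding phosphatase inhibitor, fell by 1.08 ± 0.05 and the chromatin protein Hmgb2 by 1.01 ± 0.06, while the nucleoside diphosphate kinase Nme1 rose by 0.39 ± 0.08 and Set by 0.20 ± 0.04. The calls of Nme1 and Set were lost with median centring, that of Set under 2 alternatives in all, and both genes have near-identical copies. The other Set probes read 0.37 and 0.24.

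Of the 13 other Tudor-domain genes tested of 16, 3 rose, 5 fell and 5 did not pass (61.5% called, near the 51.6% of all named genes; median -0.08, against 0.01 over all named genes). Phf1, a chromatin reader associated with Polycomb complexes, rose by 0.97 ± 0.05 and the mitochondrial anchor protein Akap1 by 0.69 ± 0.07, with its other probes at 0.11 and 0.41. Mtf2, a relative of Phf1, fell by 0.33 ± 0.05 and Tdrd3, a reader of methylated arginine, by 0.29 ± 0.04, with a second Tdrd3 probe at -0.12.

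Of 16 tested among 18 partners and upstream regulators of Mtdh, 4 rose, 4 fell and 8 did not pass (50% called, near the 51.6% of all named genes; median -0.03). Myc, an activator of Mtdh transcription in human cells, fell by 0.69 ± 0.05 (SE), with its other probes at -0.57 and -0.08, and the NF-kappaB kinase Ikbkb by 0.59 ± 0.04. The PI3 kinase subunit Pik3ca fell by 0.45 ± 0.06 at its brightest probe, while its second read -0.004.

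Genes reported downstream of Mtdh or Snd1 in tumour cells were the list with the highest median. Of 21 tested of 24, 10 rose, 5 fell and 6 did not pass (71.4% called, against 51.6% of all named genes, 26% higher and 25.6% lower; median 0.12, against 0.01 over all named genes). The matrix protease Mmp2 rose by 1.86 ± 0.09 (SE), the cytokine Il6 by 1.48 ± 0.07 and the angiogenic factor Vegfa by 1.48 ± 0.05 on the log2 scale, with all 4 Vegfa probes higher. The receptor tyrosine kinase Met fell by 0.87 ± 0.04, with its other probes at -0.62 and 0.03. Mmp2 is also made by fibroblasts, whose markers rose in the same arrays (from 0.16 ± 0.04 for Col3a1 to 2.72 ± 0.04 for Postn), and their part in the Mmp2 difference was not tested.

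Between the rescues none of the genes in these lists passed 2-fold. The median W391D minus wild-type difference of a list ran from -0.07 for the Tudor-domain family to 0.07 for the SET complex and U5 partners, against -0.002 over all named genes. Single genes ran from -0.37 (Stk31, a testis Tudor-domain kinase) to 0.49 (Mmp9, a matrix protease). Stk31 was not measured well enough to test in the WTA cells and was not well above background in the wild-type rescue. Both genes were picked out after their values were seen. None of the listed partners had a W391D minus wild-type difference as low as that of Mtdh at A_51_P158822 (-0.52). At A_52_P358349 the Mtdh difference was -0.18, and several partners were lower than that, among them Dicer1 (-0.33) and Yy1 (-0.30).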

How the data were processed

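RNA from 8 cell samples was measured on 2-colour Agilent arrays, and groups came from the labels. Per the file headers, the deposited intensities are median spot and local background signals per dye from Agilent Feature Extraction 11.0.1.1 (the submitters' processing notes name 9.5.3.1), not normalized, on a design annotated to mm9. The deposited log10 ratios of Cy5 over Cy3 were made by that software, per the file headers. The deposited value table holds log2 ratios, not centred (column medians 0.0256 to 0.146), that equalled each array's own log10 ratios on the log2 scale within 0.01 for 93.85% to 97.96% of probes; both served as alternatives.

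From these signals, each dye was corrected by normexp (offset 50, which shrinks ratios of dim spots such as Snd1) and ratios were loess-normalized within arrays, using limma 3.58.1 and R 4.3.3. Control spots (1639) and outlier spots (77 to 142 per array) were left out, no spot was saturated, and repeated spots were averaged. Accessions were matched to symbols through RefSeq's table of GRCm38.p6, a later build, used only for names, chromosomes and gene order: 27668 probes matched and 13506 did not. The files hold no gene name column.

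The 33564 probes whose Cy5 signal was well above background on 3 or more of the 6 WTA arrays were tested with lmFit and eBayes, Benjamini-Hochberg adjustment over all of them and a threshold of 0.05, with no block. Adjusted p-values and 95% intervals come from this fit. Rescue arrays had no replicates, so only differences and a 2-fold mark are given. Lists use the brightest probe of a gene. Named were the member probes, the 5 genes closest in pattern, the 5 neighbours on each side, and per list up to 4 called genes with the smallest p. One gene that this rule took is not reported here. Members and lists were chosen with earlier results of these data known.

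Same-numbered knockdown and vector arrays deviated together (r = 0.570, 0.308 and 0.312 across probes). So did differently numbered pairs of the second slide (0.216 and 0.369), whereas pairs from different slides gave -0.480 to -0.350. The sign of r thus followed the slide, and pairing by number within the second slide was not shown. The main fit has no block, so its p-values and intervals leave the slide out. Fits with the replicate number or the slide as a block served as alternatives. Alternatives were other background and scaling methods, filters, blocks, array weights, thresholds, 1 probe per gene and each replicate left out. The fit was tested on simulated data whose arrays varied independently, so that test does not cover the slide pattern described here.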

Additional observations from a re-analysis of the deposited data

How the results depend on the processing

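Snd1 in knockdown minus vector kept its direction and its side of the threshold in all 20 alternatives (-1.19 to -0.84), and between -0.95 and -0.84 with a replicate left out. With the replicate number as a block, limma adjusted p was 9.29e-06 for Snd1, 0.0796 for Mtdh A_51_P158822 and 0.414 for A_52_P358349, with 9040 probes higher and 8112 lower. No call changed among the members, the genes closest to Snd1, the called neighbours and the called list genes named above, each at its brightest probe. Calls of the genes closest to Mtdh, of second probes and of Ywhaz were not checked in this fit. Mtdh A_51_P158822 passed only with array weights (-0.16), and ran from -0.16 to -0.08 with a replicate left out. Mtdh A_52_P358349 turned sign with median centring (-0.063), with the Cy5 channel alone (-0.018) and in 1 of the fits that left out a replicate (-0.0030 to 0.078). Its slide difference of -0.06 turned to 0.040 with Cy5 alone. Main counts of 7918 higher and 7415 lower probes became 717 and 469 when at least 2-fold was also required, and 4951 higher with Cy5 alone. W391D minus wild-type rescue for Snd1 was -0.15 with the software's log ratios or the value table, -0.17 with median centring or scaling and -0.37 with Cy5 alone. Median centring gave -0.64 for Mtdh A_51_P158822 and -0.28 for A_52_P358349, and Cy5 alone -0.43 for the first. W391D minus vector for Snd1 was 0.35 with the software's ratios or the value table, 0.33 with scaling and 0.10 with Cy5 alone. For Mtdh A_51_P158822 it was 0.38 with median centring and 0.31 with Cy5 alone, and for A_52_P358349 0.31 and 0.53. Wild-type rescue minus vector for Mtdh A_51_P158822 was 0.75 with Cy5 alone. The cause of these shifts was not tested. The dim Snd1 spot, 288 to 362.5 in the knockdown over a background of 58 to 76 on the arrays, limits how exactly its fold is known.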

Other observations

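Ywhaz (14-3-3 zeta), a signalling adaptor listed among the partners of Mtdh and likewise on chromosome 15, differed between the lines in a probe-dependent way and was picked out after its values were seen. At probe A_51_P480709 the Ywhaz log2 ratio was -0.56, -0.60 and -0.64 in the knockdown, 1.66 in the W391D rescue, 1.94 in the wild-type rescue, and -0.59, -0.62 and -0.53 in the vector cells. The rescues were thus 2.24 and 2.52 above vector, places 71 of 34843 and 51 of 35084 from the highest. At probe A_52_P225260 the Ywhaz rescue minus vector differences were 0.46 and 0.48, and there the knockdown was higher than vector by 0.52 (limma adjusted p = 0.000315), against -0.02 (adjusted p = 0.771) at the first probe.

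The probes that differed most between the rescue arrays were also seen after the fact. The only probe past 2-fold, NAP061005-1, has no gene symbol here and was lower with W391D. Gen1, a Holliday junction resolvase, was -0.98, Phactr2 -0.95, the matrix proteoglycan Agrn -0.95 and Igfbp2, which binds insulin-like growth factors, -0.94, while Tfpi, a coagulation inhibitor, was 0.96 and the lysosomal enzyme Hgsnat 0.92. Over all probes compared, the rescue arrays, on separate slides, differed with an SD of 0.136, against 0.0954 and 0.111 for replicate pairs on one slide and 0.158 to 0.170 for replicate pairs across slides.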
